A study of Rattus norvegicus with 30 samples.

Results

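The chemokines, the interleukins and their receptors were followed in the stomach, jejunum and colon of rats given irinotecan. Members were genes whose array annotation gave exactly 1 symbol starting with Ccl, Cxcl, Ccr, Cxcr or Il followed by a digit. This rule found 89 genes, on 114 probe sets, of 14217 genes with 1 symbol on the array. They were 16 CC chemokines, 11 CXC chemokines, 11 chemokine receptors, 23 interleukins and 28 interleukin receptors or regulators. Each gene was represented by the probe set with the highest mean over the 30 arrays.

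Female DA rats, 10 weeks old, received irinotecan (200 mg/kg), a topoisomerase I inhibitor used against colorectal cancer, as 1 intraperitoneal injection under light halothane, and were killed after 1, 6, 24 or 72 h. The 0 h rats got no irinotecan, and the labels do not say whether they were injected or anaesthetised. There were 6 rats per time, and RNA from 3 rats was pooled for each array, so each of the 15 groups of tissue and time had 2 arrays. Stomach, jejunum and colon were taken from the same animals, every comparison with 0 h within a tissue shares the same 0 h arrays, and p-values measure the spread between pools of rats, not between single rats.

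Chemokines are small secreted proteins that draw leukocytes along a gradient through G protein-coupled receptors. The CC and CXC classes are told apart by the spacing of their first cysteines. Interleukins are secreted signals between leukocytes, epithelium and stroma. Many, but not all, act through receptors that feed into JAK-STAT signalling or, for the IL-1 and IL-17 families, into NF-kappaB. In the gut several of them, such as Ccl20, Ccl28 and Cxcl1, are made by the epithelium itself.

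The promoters of the 4 chemokines that rose in the jejunum at 6 h are shown, and each holds a match to the motif described below. The promoters of Ccl6, the chemokine that fell there, and of Il6st, a receptor chain that rose there, hold no match to it. No match was found for Il4r and Il33, which also rose there, and whether a promoter was given for them is not stated here. RefSeq (GRCr8) gave a promoter for 67 of the 89 members. The 250 bases before the start of each gene were searched on both strands for the kappaB consensus, a 10-base motif bound by NF-kappaB. The capitals mark its matches, each sequence runs 5′ to 3′ on the strand of the gene, and the positions are chr9:91836909-91837158 (plus strand) for Ccl20, chr14:15988816-15989065 (plus) for Cxcl10, chr14:15973478-15973727 (plus) for Cxcl11 and chr14:17479322-17479571 (minus) for Cxcl1.
Ccl20: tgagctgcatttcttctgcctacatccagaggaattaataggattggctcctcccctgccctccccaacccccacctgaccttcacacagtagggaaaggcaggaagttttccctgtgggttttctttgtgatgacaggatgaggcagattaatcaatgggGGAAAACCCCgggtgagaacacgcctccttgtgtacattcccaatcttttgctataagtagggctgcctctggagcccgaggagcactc
Cxcl10: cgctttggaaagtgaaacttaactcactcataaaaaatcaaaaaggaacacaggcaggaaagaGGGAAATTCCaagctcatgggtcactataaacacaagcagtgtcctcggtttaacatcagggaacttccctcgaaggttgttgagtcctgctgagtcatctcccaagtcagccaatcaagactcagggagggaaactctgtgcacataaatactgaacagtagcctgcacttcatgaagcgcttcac
Cxcl11: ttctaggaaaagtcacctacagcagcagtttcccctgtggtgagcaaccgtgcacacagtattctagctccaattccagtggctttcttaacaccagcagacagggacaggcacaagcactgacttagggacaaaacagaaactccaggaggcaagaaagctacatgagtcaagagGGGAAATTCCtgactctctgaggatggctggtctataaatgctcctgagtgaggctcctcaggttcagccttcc
Cxcl1: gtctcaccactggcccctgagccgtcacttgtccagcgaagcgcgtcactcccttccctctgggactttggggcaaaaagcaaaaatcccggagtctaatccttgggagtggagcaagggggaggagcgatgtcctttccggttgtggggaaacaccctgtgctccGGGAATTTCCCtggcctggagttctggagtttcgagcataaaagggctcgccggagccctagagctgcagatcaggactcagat

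The match began 89 bases before the start in Ccl20, 187 in Cxcl10 and 74 in Cxcl11, and Cxcl1 held a pair of overlapping matches beginning 84 and 83 bases before it. Cxcl10 and Cxcl11, which neighbour each other and Cxcl9 on chromosome 14, carried the same 10 letters, GGGAAATTCC. The consensus was found in 12 of the 67 member promoters (17.9%) and in 3.52% of 27457 RefSeq promoters. The 12 were Ccl9, Ccl20, Ccr3, Cxcl1, Cxcl2, Cxcl6, Cxcl10, Cxcl11, Il1r1, Il1rap, Il6 and Il27ra. Of these Ccl9, Ccr3, Cxcl2, Cxcl6, Il1r1, Il1rap, Il6 and Il27ra did not pass in the jejunum at 6 h. The looser motif GGGNNNNNCC was in 53.7% of member promoters and 43.5% of all. The repeat GAAANNGAAA, of the kind bound by interferon regulatory factors, was in 7.46% and 3.29%, and Cxcl10 and Il6st were among the members that held it. The letters TATAAA were in 22.4% of member promoters and 13.1% of all. These matches describe the letters in the windows searched and are not measured binding sites. The part of NF-kappaB in the members' changes was not tested.

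Signals are log2 values as deposited, so a difference of 1 is 2-fold. The file holds no detection calls. Counted as near background were 30 of the 89 members (33.7%, against 20.6% of all genes with 1 symbol), whose highest group mean over the 15 groups lay under 7.00, the median signal of the probe sets tested. They included 8 of the 11 chemokine receptors and 11 of the 23 interleukins, but 1 of the 16 CC chemokines. Il6, Il1rn, Il10, Cxcl2, Cxcl6, Ccr2, Ccr3, Ccr6 and Cxcr2 were among these 30, so a small difference in them rests on low signal. A total of 27 of the 30 lay under that median on every array.

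Lists of tissue markers went with the labels. The stomach list had medians of 13.80 to 13.99 on the stomach arrays, the jejunum list 13.35 to 13.58 on the jejunum arrays and the colon list 10.57 to 11.90 on the colon arrays. Some arrays stood apart. The pancreatic acinar list (12 of 12 markers measured) had a median of 13.43 on stomach 72 h replicate 1, 12.16 on colon 72 h replicate 2 and 9.33 on colon 6 h replicate 1, against 6.29 to 7.38 on the 0 h arrays of both tissues. Colon 24 h replicate 1 carried stomach transcripts (Pgc at 13.67), and jejunum and stomach 24 h replicate 1 had GAPDH 3' signals 0.82 and 0.56 above the 5' signals. Most results that rest on these 6 arrays are given with and without them, and their part in the other results was not tested. Shares of all probe sets are given for the main fit only. Counts of members without these or other arrays therefore have no such share beside them.

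Before treatment the tissues differed in many members. Between jejunum and stomach 29 of the 89 members passed (20 higher and 9 lower in jejunum), where 32.2% of all probe sets passed (14.9% higher and 17.3% lower). Between colon and stomach 35 passed (18 and 17), where 33.1% of all did (15.1% and 18%). Between jejunum and colon 51 passed (33 and 18), where 45.7% of all did (25.8% and 19.9%). These splits moved with the setting. With probe sets under the median signal dropped, the jejunum and colon split turned to 7 higher and 16 lower. The other splits became 10 and 8 (jejunum and stomach) and 15 and 4 (colon and stomach). For colon and stomach it was 16 and 9 after quantile normalization and 19 and 22 in a fit of the 6 untreated arrays alone. Each p here and below is limma's, adjusted by Benjamini-Hochberg over 31042 probe sets with a threshold of 0.05, and each ± is the standard error of the difference between 2 arrays and 2. With 1 array of 0 h left out the 3 counts fell to 20, 21 and 27 at the lowest. The colon against stomach count was 21 without either stomach array and 23 without colon replicate 1, and the jejunum against colon count was 27 without jejunum replicate 2 and without colon replicate 1.

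Of the CC chemokines, Ccl6, a myeloid chemokine of rodents, read 11.85 and 11.77 on the untreated colon arrays, 8.46 and 8.81 in the jejunum and 7.67 and 8.14 in the stomach. The colon lay 3.91 ± 0.37 above the stomach (adjusted p = 1.48e-07). The jejunum minus colon difference was -3.18 ± 0.37, and jejunum and stomach differed by 0.73 ± 0.37 without passing (adjusted p = 0.141). Ccl28, the mucosal chemokine that draws IgA-producing cells, was graded: 8.89 and 8.81 in colon, 7.61 and 7.54 in jejunum and 6.03 and 6.12 in stomach. All 3 steps of that order passed, with colon 2.78 ± 0.17 above stomach. Ccl5, which attracts T cells, was a jejunal transcript, at 9.09 and 9.58 against 7.46 to 7.56 on the arrays of the other tissues, and Ccl24, which attracts eosinophils, followed the same order with 1.77 ± 0.26 between jejunum and stomach. Ccl11, another eosinophil chemokine, was highest in stomach (10.38 and 10.60, against 8.80 and 8.69 in jejunum).

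Of the CXC chemokines, Cxcl11, a ligand of Cxcr3, read 9.11 and 9.27 in jejunum and 8.13 and 9.04 in colon, but 6.98 and 6.52 in stomach, and both intestinal tissues passed against stomach. Cxcl12, the stromal ligand of Cxcr4, and Ccl21, a lymphoid-tissue chemokine of lymphatic vessels, were lowest in jejunum, with a jejunum minus stomach difference of -2.03 ± 0.36 for Ccl21. Among the interleukins, Il33, an alarmin of stroma and epithelium, lay at 10.54 and 10.46 in stomach, 9.33 and 9.09 in colon and 8.54 and 8.63 in jejunum, with no overlap. Il34, a ligand of the macrophage receptor Csf1r, Il7, which sustains lymphocytes, and Il1a were highest in colon, by 1.23 ± 0.16, 1.20 ± 0.14 and 1.24 ± 0.30 over the stomach. Il36b was highest in jejunum (7.33 and 7.77, against 4.82 and 6.17 in stomach and 5.02 and 5.17 in colon). Il11ra1, the receptor of IL-11, was higher in stomach, with a jejunum minus stomach difference of -2.01 ± 0.18.

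**Figure D1:**
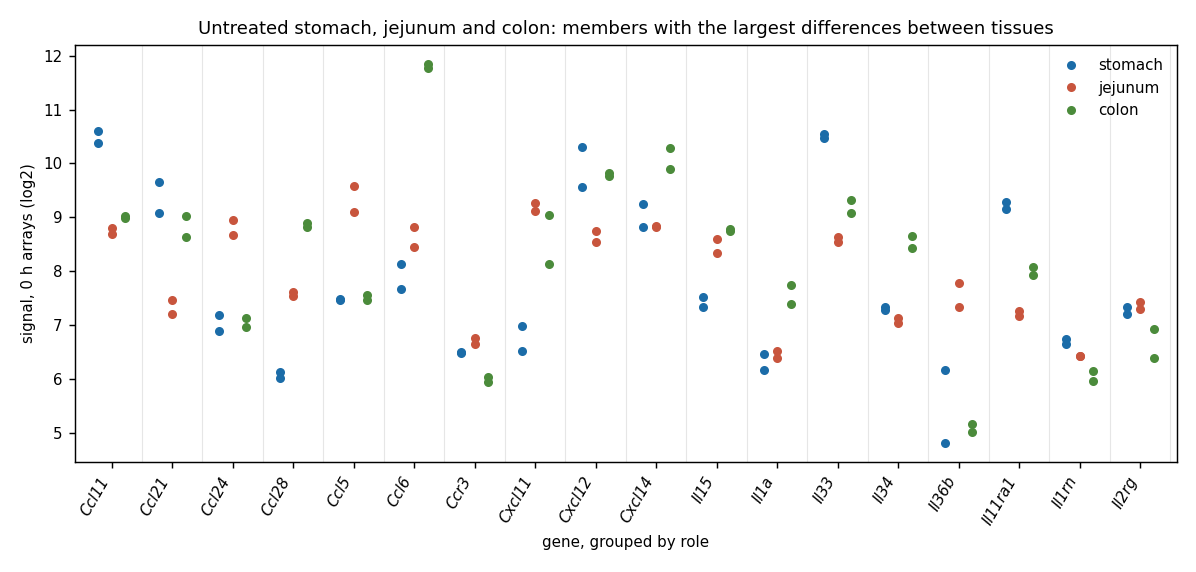
Signal (log2) on the 0 h arrays for the members with the 5 largest differences either way between untreated tissues, with 1 point per array and colour for tissue. Ccl6 stands apart in colon (11.85 and 11.77), Il33 and Il11ra1 are highest in stomach, and Ccl5 and Ccl24 are highest in jejunum.

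At 1 h the only member that passed was Ccl20 in the jejunum. Ccl20 is the ligand of Ccr6 that epithelium uses to call dendritic cells and lymphocytes. It read 8.57 and 8.80 at 0 h and 10.89 and 10.17 at 1 h, a rise of 1.84 ± 0.22 (3.58-fold, adjusted p = 0.0446), where 0.0354% of all probe sets passed. Both arrays at 1 h lay above both at 0 h. Leaving out the first or the second 0 h array moved the adjusted p to 0.556 or 0.331, and leaving out the first or the second 1 h array gave 0.0513 or 0.0449. A block for the replicate number gave 0.117. In whole tissue, more cells of a type and more RNA per cell cannot be told apart, here and below.

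Ccl20 stayed high at 6 h in the jejunum, at 10.24 and 10.44 (1.65 ± 0.22, adjusted p = 0.0077), and read 8.97 and 8.83 at 24 h and 8.62 and 8.98 at 72 h. The 24 h and 72 h arrays thus lay near the 0 h pair. In the colon the 10 arrays ran from 8.85 to 9.92 with no time apart from the others. In the stomach Ccl20 was 9.28 and 9.81 at 6 h against 8.50 and 8.73 at 0 h, 0.93 ± 0.33 higher without passing. The difference between the tissues in the 1 h change did not pass either (F test, adjusted p = 0.368). Its receptor Ccr6 was near background.

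Other jejunal members that were high at 1 h did not pass. Cxcl13, which organises B cell follicles through Cxcr5, read 8.41 and 9.54 against 7.33 and 6.93 (1.84 ± 0.30, adjusted p = 0.18). Cxcr4 differed by 1.13 ± 0.25 (7.57 and 8.26 against 6.95 and 6.61), Ccl21 by 1.01 ± 0.20 and the myeloid chemokine Ccl9 by 0.60 ± 0.17. For all 4 both arrays at 1 h lay above both at 0 h, and in each the higher array was replicate 2. That array also had the highest B cell list of the jejunum: with 7 of 10 markers measured, the list medians were 6.79 and 6.83 at 0 h and 7.05 and 7.88 at 1 h, and the summed levels 10.54 to 10.71 and 10.53 to 10.87 log2. Ms4a1, which encodes CD20, read 8.04 there and Cr2, a receptor of follicular B cells, 7.36, against 6.20 or lower at 0 h. 3 of the 7 markers were higher at 1 h, and the part of B cell follicles in these values was not tested. With the arrays that stood apart left out, Cxcl13 passed as well (adjusted p = 0.0226).

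No member passed at 1 h in the stomach (0.0161% of all probe sets did) or in the colon (0 of all probe sets). An unadjusted p under 0.05 was found for 4 members in the stomach (4.49%, against 5.72% of all probe sets). In the colon it was found for 17 (19.1%, against 14.9% of all). Cxcl1, the neutrophil chemokine that acts on Cxcr2, had the largest difference in the stomach, at 7.38 and 7.29 against 6.18 and 6.18 (1.15 ± 0.45). In the colon the smallest p belonged to Il15, Il7 and Il34, all lower at 1 h by 0.62, 0.69 and 0.51, with adjusted p of 0.267, 0.27 and 0.286. For all 3 both arrays at 1 h lay below both at 0 h.

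**Figure D2:**
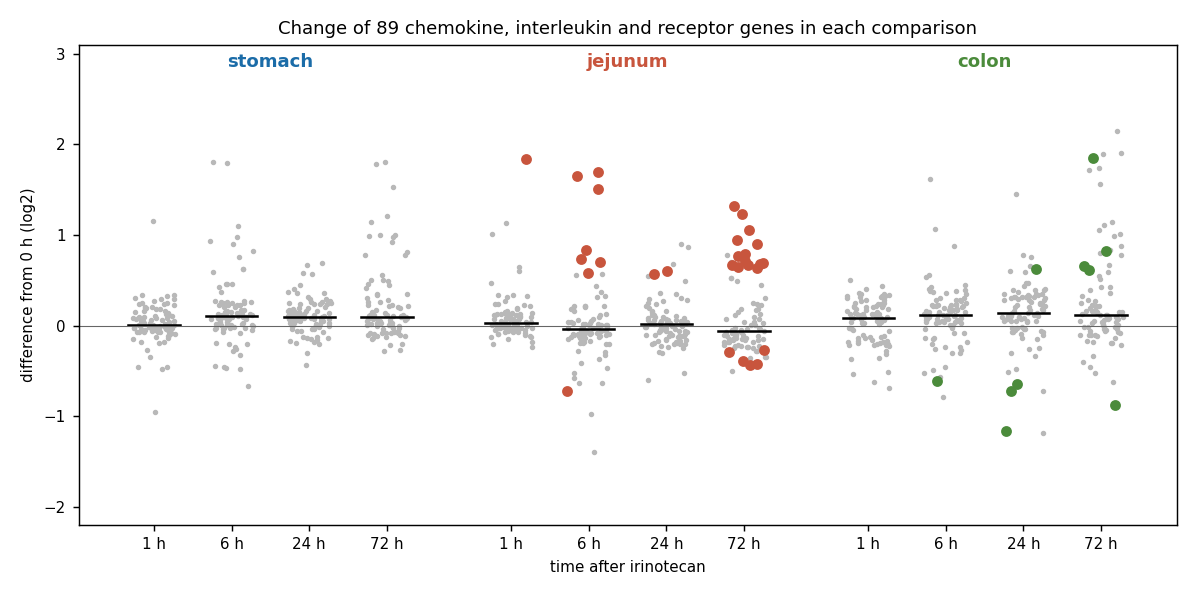
Difference from 0 h (log2) of the 89 members in the 12 comparisons, with 1 point per gene, large coloured points for members that passed at an adjusted p of 0.05 and a bar at the median. No stomach member passed, 19 passed in the jejunum at 72 h, and the medians ran from -0.06 to 0.14.

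At 6 h in the jejunum 7 members rose and 1 fell, 8.99% of the 89, where 3.49% of all probe sets passed (2.3% rose and 1.19% fell). The median of the members was -0.03, against -0.02 over all. The chemokines Cxcl10, Cxcl11, Ccl20 and Cxcl1 rose, as did Il33 and the receptor chains Il4r and Il6st. Ccl6 fell.

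Cxcl11 and Cxcl10 are ligands of Cxcr3, found on activated T cells, and are classically induced by interferon. Cxcl11 read 9.11 and 9.27 at 0 h and 10.64 and 10.75 at 6 h, a rise of 1.50 ± 0.10 (2.83-fold, adjusted p = 0.0016). Cxcl10 read 7.02 and 6.94 at 0 h and 8.38 and 8.97 at 6 h (1.69 ± 0.32, 3.23-fold, adjusted p = 0.0254). In both the groups were far apart, and in both the 1 h arrays (9.43 and 9.50, 7.28 and 6.76) lay near 0 h. Cxcl9, the third ligand of Cxcr3 and their neighbour on chromosome 14, read 6.37 and 6.45 at 6 h, overlapping its 0 h arrays at 6.23 and 6.51. Cxcr3 itself was near background.

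Cxcl1 rose by 0.71 ± 0.14 (6.28 and 6.17 to 6.98 and 6.87), with 6.76 and 6.97 at 1 h. Il4r, the chain shared by the receptors of IL-4 and IL-13, rose by 0.84 ± 0.10 (8.37 and 8.51 to 9.29 and 9.26, adjusted p = 0.00668). Il6st, which encodes gp130, the signal-passing chain of the IL-6 family, rose by 0.74 ± 0.09 (8.28 and 8.06 to 8.87 and 8.95). In each of these 3 the 6 h arrays lay above both 0 h arrays. Of the 3 other Il6st probe sets 1 passed at 6 h (0.68, adjusted p = 0.0338).

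Il33 rose by 0.58 ± 0.12 (8.54 and 8.63 to 9.19 and 9.14, adjusted p = 0.0397). Ccl6 fell by 0.72 on the log2 scale, from 8.46 and 8.81 to 7.79 and 8.03.

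Several leukocyte lists were lower in the same comparison, with no marker past the threshold. The mast cell list had 0 of 10 markers above 0 and summed levels of 10.72 to 10.98 at 0 h and 9.84 to 9.92 at 6 h. The dendritic cell list had 0 of 5 above 0, with 9.52 to 9.56 and 9.03 to 9.07. The macrophage list had 3 of 11 above 0, with 13.67 to 13.77 and 13.42 to 13.60, and the T cell list 2 of 13, with 11.53 to 11.77 and 11.37 to 11.49. The neutrophil list overlapped, with summed levels of 8.953 to 8.961 at 0 h and 8.934 to 8.974 at 6 h. So did the eosinophil list, with 7.525 to 7.577 and 7.525 to 7.612. The part of these cells in the members' changes at 6 h was not tested.

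Without the jejunal 24 h array that stood apart, which enters through the shared spread, 12 members were higher and 8 lower. That spread is shared by all probe sets, and the share of them that passed in that fit is not given. The lower members included Ccl11, Ccl24, Ccl28, Cxcl12 and Cxcl14. Cxcl14, an epithelial chemokine, read 7.29 and 7.57 against 8.83 and 8.84 at 0 h (-1.40 ± 0.46, adjusted p = 0.136 with all arrays). Cxcl11 was the only one of the 8 calls that held whichever of the 4 arrays was left out (adjusted p 0.0197 to 0.0374), and with the replicate block Cxcl10 missed at 0.0511. Leaving out 0 h replicate 1 gave 2 calls and each other omission 1, and Cxcl10 had adjusted p of 0.109 to 0.188.

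**Figure D3:**
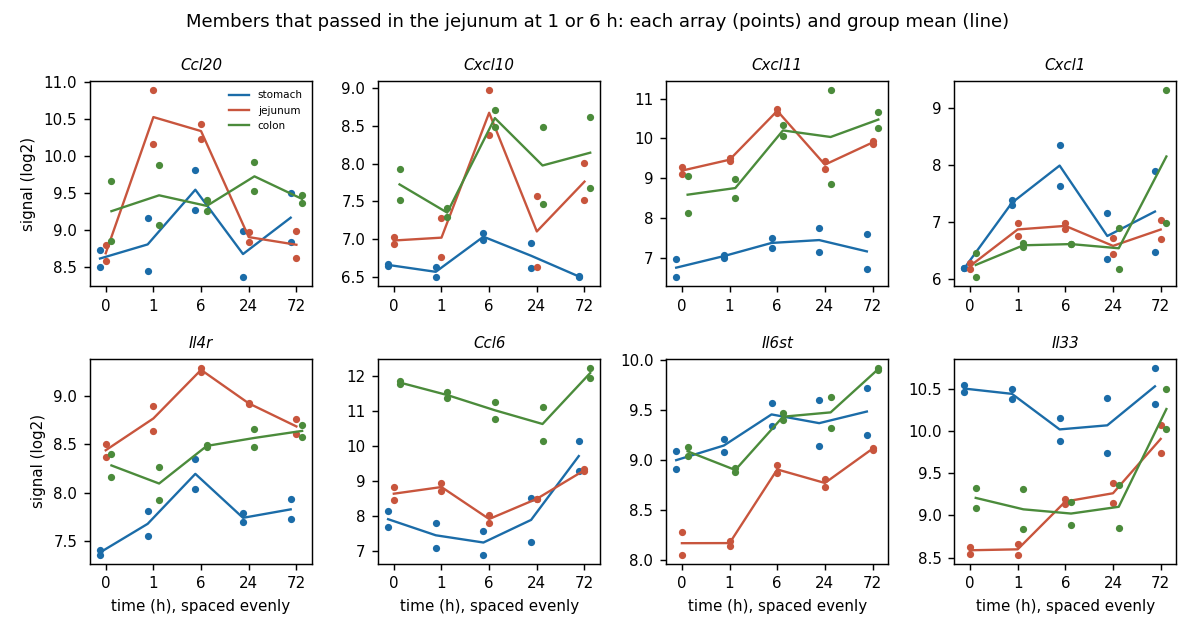
Signal (log2) by time for the 8 members that passed in the jejunum at 1 or 6 h, with 1 point per array, lines through group means, and times spaced evenly. Jejunal Ccl20 is high at 1 and 6 h, jejunal Cxcl10 and Cxcl11 peak at 6 h, and within the jejunum Il6st and Il33 are highest at 72 h.

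In the colon at 6 h the same pair of Cxcr3 ligands was high without passing. Cxcl11 read 10.35 and 10.06 against 8.13 and 9.04 (1.62 ± 0.58, adjusted p = 0.259), and Cxcl10 8.49 and 8.72 against 7.51 and 7.93 (0.88 ± 0.33, adjusted p = 0.288). The groups did not overlap in either. The only member that passed was Il34, which fell by 0.61 on the log2 scale (8.43 and 8.65 to 7.98 and 7.88, adjusted p = 0.0309), where 1.19% of all probe sets passed (0.2% rose and 0.986% fell). It missed the threshold without any 1 of the 4 arrays (0.0831 to 0.258), and without colon 6 h replicate 1 and the other colon arrays that stood apart (0.111).

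In the stomach at 6 h no member passed, where 0.0322% of all probe sets did (0.0226% higher and 0.00966% lower). An unadjusted p under 0.05 was found for 16 members (18.0%, against 8.83% of all). Of the 89, 66 lay above 0, with a median change of 0.10, against 0.01 over all probe sets. This was not particular to 6 h or to the stomach. In the stomach 66 lay above 0 at 24 h as well and 64 at 72 h. In the colon 68 did at 6 h and 64 at 24 h, and in the jejunum 38 did at 6 h. Cxcl1 read 7.62 and 8.35 against 6.18 and 6.18 at 0 h (1.80 ± 0.45, adjusted p = 0.263). Ccl2, the monocyte chemokine, read 8.37 and 9.45 against 6.91 and 7.33 (1.79 ± 0.74, adjusted p = 0.54). Il6, an acute phase cytokine, read 6.34 and 7.04 against 5.59 and 5.59 (1.10 ± 0.24, adjusted p = 0.19). These 6 h arrays all lay above the 0 h arrays, with the higher value on replicate 2 in each.

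Il4r (0.82 ± 0.14, adjusted p = 0.126) and Il17ra, the common chain of the IL-17 receptors (0.59 ± 0.10, adjusted p = 0.135), had the smallest p in that comparison. The neutrophil list (7 of 12 markers measured) had summed levels of 8.99 to 9.02 at 0 h and 9.40 to 9.81 at 6 h, with 5 of 7 markers above 0 and none past the threshold, and its part was not tested. Without stomach 24 h replicate 1 and 72 h replicate 1, which stood apart, 6 members passed as higher: Ccl2, Cxcl1, Cxcl2, Il4r, Il6 and Il17ra, with Cxcl1 at an adjusted p of 0.00725.

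At 24 h in the jejunum 2 members rose, where 0.409% of all probe sets passed (0.319% rose and 0.0902% fell). Ccl7, a monocyte chemokine, rose by 0.57 ± 0.07 (6.79 and 6.79 to 7.36 and 7.36, adjusted p = 0.022), and at 72 h it was back at 6.80 and 6.85. Il6st rose by 0.60 ± 0.09 (8.74 and 8.81, adjusted p = 0.0377). Neither passed with a single 0 h array, and both passed with a single 24 h array. Leaving out 24 h replicate 2 left the array with the 0.82 GAPDH gap alone and gave 17 calls (8 higher, 9 lower), and leaving out the other gave 4. Il33 (9.14 and 9.38) and Il4r (8.94 and 8.92) lay above 0 h without passing (adjusted p 0.063 and 0.0862).

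At 24 h in the colon 1 member rose and 3 fell (1 and 1 after quantile normalization), where 1.14% of all probe sets passed (0.29% rose and 0.854% fell). Cxcl16, the transmembrane ligand of Cxcr6, rose by 0.63 ± 0.10 (9.50 and 9.44 to 10.06 and 10.13, adjusted p = 0.0212). Il18, an IL-1 family cytokine stored in epithelium, fell by 1.16 on the log2 scale (10.36 and 10.13 to 9.173 and 9.001, 2.24-fold, adjusted p = 0.0367). Il7 fell by 0.73 (7.91 and 8.32 to 7.37 and 7.42) and Il15, which sustains intraepithelial lymphocytes, by 0.65 (8.75 and 8.79 to 8.30 and 7.93), with adjusted p of 0.0397 and 0.0396.

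The 24 h arrays lay below both 0 h arrays in these 3 interleukins, and Il15 was already at 8.11 and 8.18 at 1 h. Cxcl16 and Il18 passed under 0 of the 4 omissions of an array. Il15 passed under 1, without 24 h replicate 1, the array with stomach transcripts (adjusted p = 0.0226), and Il7 under 1, without 0 h replicate 1 (adjusted p = 0.0384). The omission of 24 h replicate 1 gave 3 calls, 2 of them higher and neither of those Cxcl16. The other omissions gave 1 (0 h replicate 1), 0 (0 h replicate 2) and 1 (24 h replicate 2). With all 3 colon arrays that stood apart left out, 9 members passed (5 higher and 4 lower), including Cxcl11, which read 8.86 on 24 h replicate 1 and 11.21 on replicate 2 (2.63, adjusted p = 0.0107, against 1.45 and 0.246 with both). Il7 was not among these members, and a single array was left at 24 h, replicate 2. Both 24 h arrays lay above both 0 h arrays in the summed stomach list (11.44 to 14.25 against 9.33 to 10.16). The same held for the summed jejunum list (12.11 to 13.33 against 10.72 to 11.51). The part of stomach and jejunum tissue in these values was not tested. The macrophage list had 10 of 11 markers above 0, with summed levels of 11.90 to 12.19 at 0 h and 12.25 to 13.10 at 24 h, and the B cell list 7 of 7, with 10.46 to 10.65 and 10.83 to 11.09. None of these macrophage and B cell markers passed. The stomach markers Gkn1 and Gkn2 (3.49 and 3.73) and the smooth muscle markers Des and Lmod1 (0.77 and 0.62) passed as higher in this comparison. No listed cell type marker passed as lower. The part of these cells and tissues in the members' changes was not tested.

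No stomach member passed at 24 h, where 0.0161% of all probe sets did. An unadjusted p under 0.05 was found for 6 members (6.74%, against 8.34% of all probe sets). Il13 and Il5ra, both near background, had the smallest p, with differences of 0.29 and 0.32 and adjusted p of 0.571 each.

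At 72 h in the jejunum 14 members rose and 5 fell. These 19 are 21.3% of the members, beside 23.9% of all probe sets (11.9% rose and 12% fell), and the median change was -0.06, against -0.07 over all. Il33, the IL-1 receptors, the IL-6 receptor chains and 5 of the 11 CXC chemokines were among those that rose, and Cxcr5, Ccl19, Ccr3, Il13 and Il20rb fell. The CXC chemokines had a median of 0.63, with 9 of 11 above 0, and the chemokine receptors one of -0.23, with 2 of 11 above 0.

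Il33 read 8.54 and 8.63 at 0 h and 9.74 and 10.07 at 72 h, a rise of 1.32 ± 0.12 (2.50-fold, adjusted p = 0.00064). Its other probe set rose as well (0.95, adjusted p = 0.0116). The colon had a difference of like direction at 72 h (10.03 and 10.49 against 9.33 and 9.09, 1.05 ± 0.22) that missed the threshold at an adjusted p of 0.0502. In the stomach Il33 read 10.74 and 10.31, overlapping its 0 h arrays (10.54 and 10.46). The test of the tissue difference did not pass (adjusted p = 0.0528), and the receptor of IL-33, Il1rl1, had no call at any time.

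Il1r2, the decoy receptor that binds IL-1 without passing a signal, rose by 1.23 ± 0.18 (6.10 and 6.02 to 7.50 and 7.07, 2.34-fold, adjusted p = 0.0032). Il1r1, its neighbour on chromosome 9 and the signalling receptor, rose by 0.69 ± 0.16 (7.12 and 6.95 to 7.57 and 7.89, adjusted p = 0.0157). The other Il1r1 probe sets disagreed, at 0.04 and -0.07. Their ligands Il1a (0.22 higher) and Il1b (0.08 higher) did not pass.

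Il6st rose by 0.95 ± 0.09 (8.28 and 8.06 to 9.13 and 9.11, adjusted p = 0.000696), and its 3 other probe sets rose by 1.14 to 1.37. Il6r, the ligand-binding chain, rose by 0.68 ± 0.15 (6.40 and 6.36 to 7.08 and 7.02, adjusted p = 0.0156). Il6 itself was near background at all times in the jejunum, from 5.65 to 6.20 over the 10 arrays. Il17re, a receptor chain of epithelium for IL-17C, rose by 0.67 ± 0.13.

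Of the chemokines, Ccl21 rose by 1.06 ± 0.20 (7.21 and 7.46 to 8.52 and 8.27, adjusted p = 0.00818). Cxcl12 rose by 0.90 ± 0.28 (adjusted p = 0.0488), and of its other probe sets 1 passed (1.31, adjusted p = 0.00282) and 1 did not (0.50, adjusted p = 0.0796). Cxcl16 rose by 0.77 ± 0.15 (8.88 and 8.76 to 9.64 and 9.52). Cxcl11 rose by 0.71 ± 0.10 (9.86 and 9.94, adjusted p = 0.0024), under its 6 h arrays, and Cxcl9 rose by 0.63 ± 0.16 (6.23 and 6.51 to 7.09 and 6.92, adjusted p = 0.0251). Cxcl1 rose by 0.64 ± 0.14, to 6.702 and 7.025 on low signal, and Ccl6, low at 6 h, by 0.67 ± 0.14 (9.28 and 9.33). All of these 72 h arrays lay above both 0 h arrays.

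Ccr1, a receptor of monocytes and neutrophils for CC chemokines, rose by 0.79 ± 0.21 (6.95 and 7.06 to 7.78 and 7.80, adjusted p = 0.0288). Cxcr5, the Cxcl13 receptor of follicular B cells, fell by 0.44 on the log2 scale (8.72 and 8.90 to 8.40 and 8.35, adjusted p = 0.0111), and its other probe set fell by 0.16 without passing (adjusted p = 0.309). Ccl19, a ligand of Ccr7, fell by 0.30, from 7.38 and 7.36 to 7.11 and 7.04. Ccr3, Il20rb and Il13 fell by 0.39, 0.42 and 0.28 and were near background.

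The macrophage list (11 of 13 markers measured) moved in the same comparison. Its median was 7.20 and 7.31 at 0 h and 8.18 and 8.22 at 72 h, and its summed level 13.67 to 13.77 and 14.05 to 14.10. Cd163, Mrc1, Cd14 and Csf1r rose (1.19, 1.21, 1.23 and 0.76), Aif1 fell by 0.37 on the log2 scale, and the median change of the 11 was 1.07. Of 8 smooth muscle markers 3 rose, with summed levels of 13.39 to 13.67 at 0 h and 14.27 to 14.38 at 72 h. B cell markers fell in 2 of 7, with summed levels of 10.54 to 10.71 and 10.18 to 10.36. Of 7 neutrophil markers S100a9 and Padi4 rose (0.79 and 0.52), with summed levels of 8.953 to 8.961 and 9.016 to 9.068. Of 13 T cell markers Cd8a and Cd8b fell by 0.30 and 0.38, with 11.53 to 11.77 and 11.57 to 11.71. Of 10 epithelial markers Krt18 rose by 0.965 and Vil1 fell by 0.60. The part of these cells in the members' changes was not tested.

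Il33, Il1r2, Il6st and Cxcl11 held their calls whichever of the 4 arrays was left out. The count fell to 7 when either 0 h array was omitted, to 6 when 72 h replicate 1 was and to 9 when 72 h replicate 2 was. With jejunum 24 h replicate 1 left out of the fit 17 rose and 13 fell, and the share of all probe sets in that fit is not given. From 24 h to 72 h 6 members rose and 4 fell, where 12.9% of all probe sets passed (8.77% rose and 4.15% fell). Il1r2 (1.07), Ccl6 (0.82), Il33 (0.64), Cxcl11 (0.56), Cxcl16 (0.52) and Il6st (0.34) rose, and Ccl7, Cxcr5, Ccl19 and Il18bp, the binding protein of IL-18, fell by 0.53, 0.43, 0.33 and 0.31. Omitting either 72 h array gave 2 calls, and omitting 24 h replicate 2 gave 25. Without 24 h replicate 1, which stood apart, a single array was left at 24 h. Il1r2, Ccl6, Il33 and Cxcl11 then differed by 0.887, 0.825, 0.524 and 0.459 from 24 h to 72 h, and Cxcl16 and Il6st did not pass. Of the 11 macrophage markers 6 rose from 24 h to 72 h, with a median change of 0.86, and their part was not tested.

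At 72 h in the colon 4 members rose and 1 fell, 5.62% of the members, where 1.32% of all probe sets passed (0.892% rose and 0.432% fell). All 11 CXC chemokines lay above 0, with a median of 0.67, although Cxcl16 was the 1 that passed. The median over the 89 members was 0.12, against -0.02 over all probe sets.

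Ccl21 rose by 1.85 ± 0.38 (9.02 and 8.63 to 10.79 and 10.56, 3.61-fold, adjusted p = 0.0469). Il6st rose by 0.82 ± 0.12 (9.05 and 9.13 to 9.92 and 9.91, adjusted p = 0.0146). Il7r, the IL-7 receptor chain of lymphocytes, rose by 0.65 ± 0.12 (6.46 and 6.62 to 7.24 and 7.15) and Cxcl16 by 0.61 ± 0.10 (10.16 and 10.00). Il34 fell by 0.87 on the log2 scale (8.43 and 8.65 to 7.71 and 7.62, adjusted p = 0.0131). In all 5 the groups did not overlap.

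Several chemokines had larger differences than these without passing. Ccl2 read 8.79 and 10.42 against 7.15 and 7.76 (2.15 ± 0.52, adjusted p = 0.0752), Ccl7, its neighbour on chromosome 10, 7.86 and 9.44 against 6.83 and 7.05 (1.72 ± 0.42, 0.0788), and Cxcl1 6.99 and 9.31 against 6.04 and 6.45 (1.90 ± 0.55, 0.115). In each, replicate 2 was the higher. Ccl11, which lies beside Ccl2 and Ccl7, read 10.62 and 10.86 against 8.99 and 9.02 (1.74 ± 0.44, adjusted p = 0.0846), with both replicates alike. Cxcl11 read 10.68 and 10.27 (1.89 ± 0.58, adjusted p = 0.134).

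Colon 72 h replicate 2 was the array with a pancreatic acinar median of 12.16, and it carried Il6 at 7.40 and Cxcl13 at 10.06, against 5.73 and 7.90 on replicate 1. Its B cell list median was 7.49 against 6.33 on replicate 1, with summed levels of 10.71 and 10.21. The colon macrophage list had medians of 7.56 and 7.65 at 0 h and 9.26 and 9.36 at 72 h, summed levels of 11.90 to 12.19 and 13.02 to 13.20, and 1 of 11 markers past the threshold, Cd163 (1.85). The part of these cells was not tested. Without the 3 colon arrays that stood apart 14 members rose and 3 fell, among them Ccl2 (1.33), Ccl7 (0.93), Ccl11 (1.61), Ccr1 (1.21), Cxcl11 (2.09), Il1r1 (0.91) and Il1r2 (1.56). Cxcl1 was then 0.74 higher, with 1 array at 72 h, replicate 1. That array read the stomach transcript Pgc at 9.76, against 8.45 and 6.60 on the 0 h arrays, within the limit set for standing apart. The part of stomach tissue in its values was not tested.

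With either 0 h array omitted 0 calls were made. Omitting 72 h replicate 1 gave 10 and omitting 72 h replicate 2 gave 6, so no call held under all 4 omissions. From 24 h to 72 h 5 members rose and 1 fell (4 and 2 after quantile normalization), where 6.73% of all probe sets passed (4.4% rose and 2.33% fell). Il1a (1.52 ± 0.23, adjusted p = 0.00802), Ccl6 (1.46), Il33 (1.16), Cxcl6 (0.82) and Il1rap, the co-receptor of the IL-1 family (0.55), rose, and Il34 fell by 0.58. Il1a read 6.98 and 6.70 at 24 h and 8.718 and 7.999 at 72 h, and Ccl6 10.14 and 11.11 at 24 h and 12.22 and 11.95 at 72 h. Without the colon arrays that stood apart, a single array was left at each of these times. Il1a, Ccl6 and Cxcl6 were then 2.02, 1.11 and 1.07 higher at 72 h, and Il33, Il1rap and Il34 did not pass. Omitting 24 h replicate 1 gave 1 call, and omitting 24 h replicate 2 gave 18.

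Markers of several cell types passed in the colon from 24 h to 72 h as well. S100a9 (2.00) and S100a8 (1.11), 2 of 7 neutrophil markers, rose, with summed levels of 9.27 to 9.50 at 24 h and 9.90 to 10.26 at 72 h. Cd163 (1.17) and Adgre1 (1.00), 2 of 11 macrophage markers, rose, with 12.25 to 13.10 and 13.02 to 13.20. The smooth muscle markers Des, Lmod1 and Cnn1, 3 of 8, fell by 0.78, 0.63 and 0.51 on the log2 scale, with 15.26 to 15.55 and 15.04 to 15.08. The epithelial markers Vil1 and Cldn3 (2 of 10) fell by 0.60 and 0.59, and Blnk, 1 of 7 B cell markers, by 0.81. The stomach markers Gkn1 and Gkn2 and the jejunal marker Fabp1 fell as well (-3.12, -3.38 and -3.73), beside the stomach transcripts on 24 h replicate 1. On both 24 h arrays the summed stomach and jejunum lists lay above those of the 0 h arrays. The part of these in the members' changes was not tested.

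**Figure D4:**
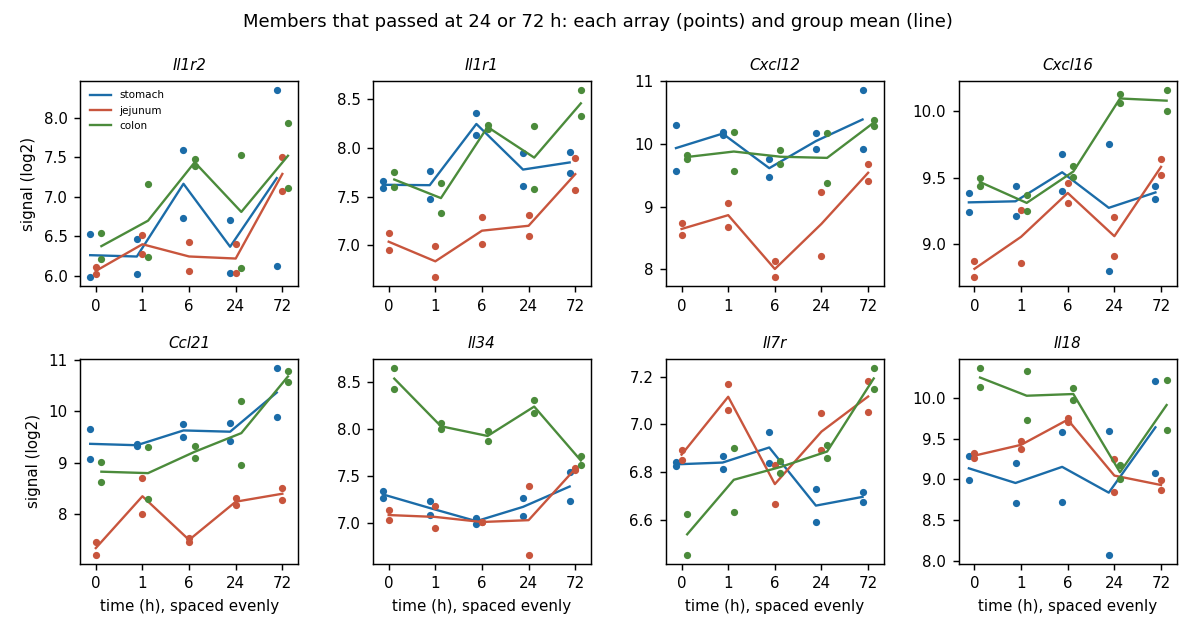
Signal (log2) by time for 8 members that passed at 24 or 72 h, with 1 point per array, lines through group means, and times spaced evenly. Within the jejunum Il1r2 and Il1r1 are highest at 72 h, Ccl21 rises at 72 h in colon (10.79 and 10.56), and colonic Il34 falls from 8.43 and 8.65 to 7.71 and 7.62.

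In the stomach at 72 h no member passed, where 0.00644% of all probe sets did. An unadjusted p under 0.05 was found for 11 members (12.4%, against 7.56% of all probe sets). The smallest p belonged to Cxcl13 (7.76 and 8.09 against 7.03 and 7.20, 0.81 ± 0.15, adjusted p = 0.474), Il6r (7.53 and 7.53 against 6.66 and 6.85, 0.77 ± 0.15, 0.572) and Ccl6 (9.28 and 10.14 against 7.67 and 8.14, 1.80 ± 0.47, 0.656). None of the 3 overlapped with 0 h. From 24 h to 72 h none passed either (0.00322% of all), and Ccl6 differed by 1.83 ± 0.47. An unadjusted p under 0.05 was found there for 12 members (13.5%, against 15% of all probe sets).

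The replicates at 72 h were unlike each other. Replicate 2 carried Il36b at 9.06 and Il36rn, the IL-36 receptor antagonist, at 9.51, against 5.49 and 6.71 on replicate 1, with Il1a at 7.79 and Il1r2 at 8.35. Its squamous epithelium list (8 of 12 markers measured), which marks the forestomach of rodents, had a median of 11.63 and Krt5 at 10.98, against 7.31 and 9.95 for the list on the 0 h arrays. The summed levels of that list were 10.20 to 13.30 at 0 h and 11.38 to 15.03 at 72 h. Replicate 1, the array with a pancreatic acinar median of 13.43, carried Ccl9 at 9.57, against 6.37 to 6.77 on the other 9 stomach arrays. The macrophage list had 11 of 11 markers above 0 and none past the threshold, with a median change of 1.02. Its medians were 7.65 and 8.01 at 0 h and 8.40 and 9.18 at 72 h, and its summed levels 11.73 to 12.20 and 12.59 to 13.34. The part of squamous epithelium, pancreas or macrophages in these values was not tested.

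Without stomach 24 h replicate 1 and 72 h replicate 1, 14 members passed as higher at 72 h, with that single array left at 72 h and its spread taken from the other groups. They included Il36b (3.57), Il36rn (2.61), Ccl2 (2.27), Ccl6 (2.23), Il1r2 (2.09), Cxcl1 (1.70) and Cxcl13 (0.98). Without 72 h replicate 1 alone 5 passed, and without 72 h replicate 2 alone 1 did. From 24 h to 72 h the counts were 3 and 2.

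**Figure D5:**
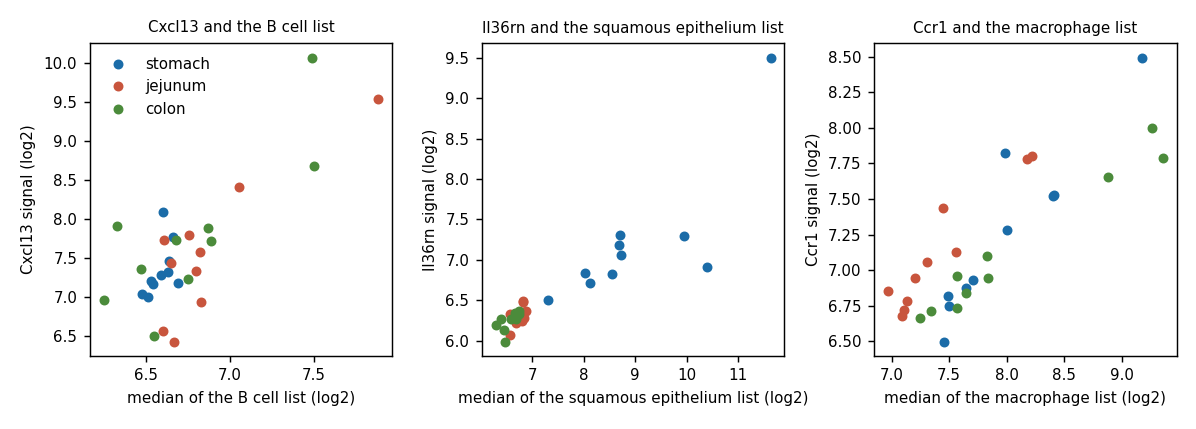
Signal (log2) of Cxcl13, Il36rn and Ccr1 on each of the 30 arrays against the median of the B cell, squamous epithelium and macrophage lists, with colour for tissue. Cxcl13 is highest on the colon and jejunum arrays with B cell medians of 7.49, 7.50 and 7.88, and Il36rn is highest on the stomach array with a squamous median of 11.63.

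The change from 0 h was tested for a difference between the 3 tissues. At 6 h 2 members passed, where 0.251% of all probe sets did, and at 72 h 3 did, where 2.28% of all did. At 1 h and 24 h none did (0.00322% and 0.229% of all). An unadjusted p under 0.05 was found at 1 h for 13 members (14.6%, against 9.07% of all probe sets). At 24 h it was found for 14 (15.7%, against 13.2% of all). Il15 at 6 h was 0.56 higher in jejunum (8.35 and 8.59 to 9.01 and 9.04), 0.57 lower in colon (8.75 and 8.79 to 8.19 and 8.20) and 0.26 lower in stomach (adjusted p = 0.0471). Il34 at 72 h was 0.49 higher in jejunum and 0.87 lower in colon (adjusted p = 0.0096). Il7r at 72 h was highest in colon, by 0.65, and lay at -0.14 in stomach (adjusted p = 0.0143). Ccr3 at 6 h and Il20rb at 72 h also passed, with differences of at most 0.42 on near-background signal. These tests take no account of the rats that the tissues share.

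The other genes of the pathway were read from lists of 12 measured chemokines and chemokine receptors outside the naming rule, 23 other cytokines and receptors, 20 signal transducers, 15 NF-kappaB and feedback genes and 8 STAT targets. In the jejunum at 6 h 2, 1, 2, 1 and 1 of these rose and none fell, or 8.97% of the 78 genes, where 2.3% of all probe sets rose and 1.19% fell. Bcl6, a STAT target and repressor, rose by 1.46 ± 0.12, Ackr3, the scavenging receptor of Cxcl11 and Cxcl12, by 1.00 ± 0.11 and Tnfaip3, the NF-kappaB feedback inhibitor A20, by 0.76 ± 0.13. Ifngr1, a chain of the interferon gamma receptor, rose by 0.76 ± 0.12. Cx3cl1, a membrane-bound chemokine, and the kinases Irak1 and Ikbkb made up the rest.

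In the jejunum at 72 h 3, 3, 3, 3 and 1 rose and 0, 5, 2, 1 and 1 fell. Together 16.7% of the 78 genes rose and 11.5% fell, near the 11.9% and 12% of all probe sets. Pf4, the platelet chemokine Cxcl4, rose by 1.07 ± 0.30, Mif by 1.27 ± 0.35, Ackr3 by 0.88 ± 0.11, Tnfaip3 by 0.83 ± 0.13 and Irak1, a kinase below the IL-1 receptors, by 0.76 ± 0.09. Ifng, Csf1, Csf3, Csf2rb and Lif fell by 0.26 to 0.42 on the log2 scale. In the colon Tnfrsf1a, a TNF receptor, rose at 6 h (0.71 ± 0.15) and 72 h (0.88 ± 0.15), Tnfaip3 at 24 h (0.68 ± 0.11) and 72 h (0.73 ± 0.11), and Ackr1, the chemokine receptor of venules, at 72 h (1.10 ± 0.18). None of these genes passed in the stomach at any time.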

How the data were processed

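RNA of whole stomach, jejunum and colon was hybridised to Affymetrix rat genome arrays, 30 in all, grouped by the tissue, time and replicate in the sample titles. The deposited values are log2 signals that the authors made with RMA, per the submitters' processing notes, with no version named. Array medians ran from 6.965 to 7.055 and replicate correlations from 0.9469 to 0.9959, and the values were left as they were. RMA pulls array distributions together, so a shift shared by most genes would not be seen.

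The 57 array controls among the 31099 probe sets were dropped. One model per tissue, over its 5 times, was fitted in limma 3.58.1 (R 4.3.3, two-sided, Benjamini-Hochberg over 31042 probe sets, threshold 0.05). Untreated tissues and tissue differences came from 1 fit of all 30 arrays. The members, marker lists, pathway lists and naming rule were chosen with earlier results of these data known. Named were all members that passed, the 3 of smallest p where none did, the 5 largest differences each way between untreated tissues, the 5 smallest p of each tissue difference, the 2 members of each class with the widest range in a tissue, and a list of well-known members. Not every member the rule allows is named, and its likeness to other genes was not computed because the arrays fall into tissues. Arrays stood apart where the GAPDH 3' signal lay over 0.5 above the 5' signal, or the pancreatic acinar median or Pgc over 2 above both 0 h arrays of that tissue. That setting was added after seeing the data, to those planned: replicate block, dim probe sets dropped, quantile normalization, trend and robust variances, 1 joint fit, array weights, other probe sets and each array left out.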

Additional observations from a re-analysis of the deposited data

Results flagged for a closer look

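The change from 0 h differed between stomach, jejunum and colon in 5 cases, by limma's F test of that difference over the 30 arrays, which takes no account of rats shared by tissues. At 6 h these were Il15 (adjusted p = 0.0471), higher in jejunum and lower in colon, and Ccr3 (adjusted p = 0.038), 0.28 lower in jejunum and 0.38 higher in colon on near-background signal. At 72 h they were Il34 (adjusted p = 0.0096), 0.49 higher in jejunum and 0.87 lower in colon, Il7r (adjusted p = 0.0143), 0.65 higher in colon and 0.24 in jejunum, and Il20rb (adjusted p = 0.0392), which fell by 0.42 in jejunum and lay 0.20 above 0 h in stomach, again near background.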

How the results depend on the processing

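Counts of members called are given by setting, beside the main counts in the text, and settings or comparisons left out here kept a count within 1.5 times of the main one. The share of all probe sets is given for the main fit only, so counts under other settings cannot be set against it. In 1 fit of all 30 arrays the count was 3 in the stomach at 6 h, 1 at 72 h and 1 from 24 to 72 h. In the jejunum it was 0 at 1 h, 4 at 6 h, 0 at 24 h, 11 at 72 h and 2 from 24 to 72 h, and in the colon 2 at 1 h, 4 at 6 h (3 higher and 1 lower), 11 at 72 h and 12 from 24 to 72 h. With array weights it was 2 in the stomach at 6 h, 2, 23, 0, 31 and 5 in the jejunum at 1, 6, 24 and 72 h and from 24 to 72 h, and 4 and 11 in the colon at 6 and 72 h. With dim probe sets dropped, 18, 19 and 23 members passed between untreated tissues, 11 in the jejunum and 3 in the colon at 72 h, and 1 in the tissue difference at 6 h, with fewer probe sets tested. With quantile normalization 1 passed in the jejunum at 24 h, 0 and 2 in the colon at 6 and 24 h, and 0 in the tissue difference at 6 h. With trend and robust variances 0 and 1 passed in the jejunum at 1 and 24 h, 8 in the colon at 72 h and 1 in the tissue difference at 6 h. Without the 6 arrays that stood apart, a setting chosen after seeing the data, 6, 14 and 3 passed in the stomach at 6 and 72 h and from 24 to 72 h, and 2, 20, 4 and 30 in the jejunum at 1, 6, 24 and 72 h. It gave 0, 9 and 17 in the colon at 6, 24 and 72 h, and 4, 2 and 20 in the tissue difference at 6, 24 and 72 h. With the replicate block 1 passed in the stomach at 72 h, 0 in the jejunum at 1 h and at 24 h, 3 in the colon at 72 h and 1 in the tissue difference at 6 h. The labels do not say whether equal replicate numbers pair the arrays. Within a tissue the deviations of replicate 1 from the group means correlated from -0.58 to 0.43 between times. Different times hold different rats, so these values cannot settle the pairing, and pairing between tissues was not examined. With 1 array left out in turn the counts ran from 0 to 5 in the stomach at 72 h and 0 to 3 from 24 to 72 h, and were 0 at 1, 6 and 24 h. They ran from 0 to 2, 1 to 2, 0 to 17, 6 to 9 and 2 to 25 in the jejunum at 1, 6, 24 and 72 h and from 24 to 72 h. In the colon they were 0 at 1 and 6 h, and ran from 0 to 3 and 0 to 10 at 24 and 72 h and 1 to 18 from 24 to 72 h. Between untreated tissues they ran from 20 to 24, 21 to 25 and 27 to 40, and the tissue difference was not refitted this way. Of 40 calls against 0 h 5 held whichever array was left out, 16 held under none of the 4 omissions, and 15 held under every other setting apart from other probe sets. An Il1r1 probe set of low signal reversed (-0.07 in the jejunum at 72 h). Near background under the median plus 1 lay 55 members. The cause of these changes was not tested, and 2 arrays per group and low signal in 30 members limit the precision.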
